A study of Mus musculus with 2 samples.

Results

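Voltage-gated sodium channel alpha subunits were examined in RNA from dorsal root ganglion (DRG) neurons of mice. The members were the genes Scn1a, Scn3a, Scn7a, Scn8a, Scn9a, Scn10a and Scn11a, taken by gene symbol. They accounted for 10 of the 35034 transcripts and 7 of the 24411 gene symbols measured. RNA-seq was available for 2 libraries, and DRG neurons of 10 C57BL/6 mice (C57BL/6J in the study's methods) were combined for each. Both groups received 50% alum, an aluminium adjuvant, in 200 µl injected into the peritoneum on days 0 and 14, and DRG were collected on day 28. The alum group received the adjuvant alone, and the alum + KLH group received it with 100 µg of keyhole limpet hemocyanin, a large foreign protein antigen. The labels of the alum library carry the word naïve as well as the adjuvant, and the library was read here as the adjuvant control. Thoracic and lumbar ganglia were digested, neurons were enriched on a density gradient, and B cells were removed with beads. With 1 pooled library per group there are no replicates, no spread between mice can be measured, and no difference below has a test.

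An alpha subunit is a single large protein of 4 homologous domains that forms the sodium-conducting pore of the action potential. In nociceptors, the sensory neurons that report painful stimuli, Nav1.7 amplifies small depolarizations, Nav1.8 carries much of the upstroke of the spike, and Nav1.9 passes a slow persistent current near the resting potential. Nav1.8 and Nav1.9 resist the pore blocker tetrodotoxin (TTX), while Nav1.1, Nav1.3, Nav1.6 and Nav1.7 are blocked by it. Nax, the product of Scn7a, belongs to the same family but is not opened by voltage and is known as a sensor of extracellular sodium. It was therefore left out where the voltage-gated members are summed.

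The short stretches below are shown because they hold the codon on which the TTX groups rest. They were cut from the coding sequence of 6 of the members in the GENCODE M21 annotation of GRCm38 (the assembly also called mm10), read 5′ to 3′ on the coding strand. Capitals mark the codon of the pore residue in domain I that contacts tetrodotoxin.
Scn9a (chr2:66548986-66549018, minus strand, exon 9): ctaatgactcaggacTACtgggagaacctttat
Scn8a (chr15:100971623-100971655, plus strand, exon 8): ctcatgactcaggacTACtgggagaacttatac
Scn3a (chr2:65521798-65521830, minus strand, exon 9): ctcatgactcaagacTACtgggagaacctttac
Scn10a (chr9:119666372-119666404, minus strand, exon 9): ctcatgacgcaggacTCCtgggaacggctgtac
Scn11a (chr9:119805665-119805697, minus strand, exon 9): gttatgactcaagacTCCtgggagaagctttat
Scn7a (chr2:66726160-66726192, minus strand, exon 9): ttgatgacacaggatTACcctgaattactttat
The codon reads as tyrosine in Scn9a, Scn8a and Scn3a and as serine in Scn10a and Scn11a. An aromatic residue at this position is known to give high TTX affinity, and serine to give resistance. The codon of Scn7a also reads as tyrosine.

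Nax differed from the other members shown in the codons that set sodium selectivity. The 4 residues of the selectivity filter, 1 per domain, read as aspartate, glutamate, lysine and alanine in Scn3a, Scn8a, Scn9a, Scn10a and Scn11a. Scn7a had asparagine in place of the lysine of domain III and serine in place of the alanine of domain IV. The following windows show these codons in Scn7a beside Scn9a, the member whose protein it matched most closely, with the filter codon in capitals.
Scn7a domain III (codon 1142): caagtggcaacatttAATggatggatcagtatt
Scn9a domain III (codon 1404): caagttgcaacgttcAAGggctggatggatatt
Scn7a domain IV (codon 1434): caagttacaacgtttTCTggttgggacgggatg
Scn9a domain IV (codon 1696): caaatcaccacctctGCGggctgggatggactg
The domain III windows span an exon junction in both genes. Those of domain IV lie within 1 exon, at chr2:66676227-66676259 in Scn7a and chr2:66484270-66484302 in Scn9a, both on the minus strand.

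The members lie in 3 places of the genome. Scn3a, Scn1a, Scn9a and Scn7a follow each other on the minus strand of chromosome 2 within 1327.8 kb, with 39.2 kb between Scn1a and Scn9a and 38.5 kb between Scn9a and Scn7a. Scn10a and Scn11a are neighbours on the minus strand of chromosome 9, 34.4 kb apart, and Scn8a lies alone on chromosome 15. Both TTX-resistant genes are therefore on chromosome 9. In pairwise alignments of the encoded proteins, Scn1a and Scn3a were closest, with the same residue at 85.3% of aligned positions, and Scn7a and Scn11a were farthest apart at 40.6%. Scn10a and Scn11a shared 56.5%, Scn3a and Scn9a 78.1%, and Scn7a and Scn9a 54.5%.

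All 7 genes were detected above 3 TPM (transcripts per 1000000, a level corrected for transcript length) in both pools, and their order was the same in both. The TPM of all rows of a gene were summed. Scn7a was highest, at 693.6 TPM in the alum pool and 694.5 TPM in the alum + KLH pool. Scn9a (Nav1.7) followed at 415.7 and 422.6 TPM and was the highest of the voltage-gated members. Scn11a (Nav1.9) stood at 374.3 and 330.2 TPM. Scn10a (Nav1.8) reached 300.5 and 282.0 TPM, so the nociceptor channels occupied the ranks just under Nax in both pools. Scn1a (Nav1.1), a channel of myelinated sensory neurons among others, was measured at 140.6 and 161.4 TPM. Scn8a (Nav1.6), the main channel of nodes of Ranvier, had 50.1 and 47.3 TPM. Scn3a (Nav1.3), which is abundant in embryonic neurons and known to return after nerve injury, had 4.94 and 5.25 TPM and was the only member near the detection threshold.

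**Figure D1:**
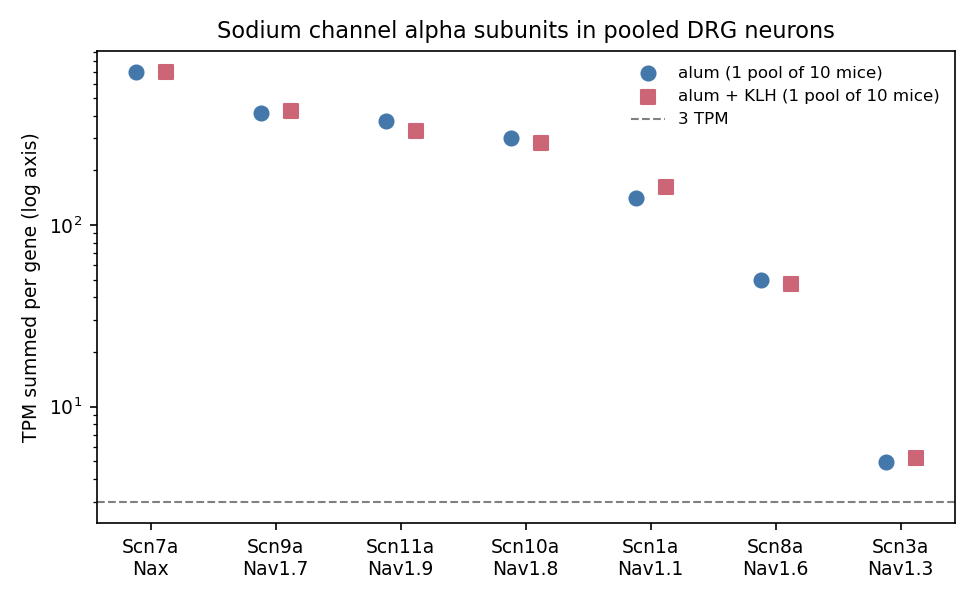
TPM summed per gene (log axis) for the 7 alpha subunits in the alum pool (circles) and the alum + KLH pool (squares), 1 library of 10 mice each, with the dashed line at 3 TPM. The points fall from 693.6 TPM for Scn7a to 4.94 TPM for Scn3a in the alum pool, in the same order as in the alum + KLH pool.

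The steps between neighbours in this order were of unequal size. From Scn7a to Scn9a the level fell 1.67-fold in the alum pool and 1.64-fold in the alum + KLH pool. Scn9a and Scn11a were the closest pair in the alum pool, 1.11-fold apart, and stood 1.28-fold apart in the alum + KLH pool. Scn11a and Scn10a were 1.25-fold and 1.17-fold apart. These are the neighbours whose order is least firm, and whether they differ beyond the spread between mice cannot be read from 1 pool each. When only the highest transcript of each gene was taken, Scn9a, with 304.7 and 301.9 TPM, fell below Scn11a. The steps below were wider. Scn10a exceeded Scn1a 2.14-fold and 1.75-fold, Scn1a exceeded Scn8a 2.80-fold and 3.41-fold, and Scn8a exceeded Scn3a 10.1-fold and 9.02-fold.

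Among all 24411 genes, 5 members ranked in the upper part of the list. Scn7a was at rank 202 in the alum pool and 205 in the alum + KLH pool, Scn9a at 445 and 434, and Scn11a at 518 and 602. Scn10a held ranks 675 and 739 and Scn1a ranks 1564 and 1364. Scn8a and Scn3a lay further down, at 3742 and 3862 and at 10241 and 9952. Together the 7 genes took 0.198% of the TPM of the alum library and 0.194% of the alum + KLH library, or 1979.7 and 1943.2 TPM. The gene for Nax alone made up 35.0% and 35.7% of that sum.

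Neurons are not the only cells that may carry these transcripts, and glial markers were detected in the preparation. All 8 markers listed as pan-neuronal were above 3 TPM, with a summed level of 9490 TPM in the alum pool and 9564 TPM in the alum + KLH pool. Their log2 ratios of alum + KLH over alum were negative for 6 of 8 genes (median -0.07). Rbfox3 at -0.44 and Prph at -0.27 were at least 1.2-fold lower, as were 8.41% of all genes above 3 TPM in at least 1 pool. Snap25 and Elavl4 were positive at 0.08 and 0.19. Of 8 Schwann cell markers 5 passed 3 TPM and the list summed to 2171 and 2131 TPM. Most of that sum was Pmp22 (1062.2 and 1020.7 TPM) and S100b (683.5 and 711.5 TPM), while Sox10, Mag and Prx were below 3 TPM. The 4 markers of non-myelinating Schwann cells summed to 251.4 and 220.0 TPM, mostly L1cam, Ngfr and Ncam1, with Gfap at 5.28 and 4.84 TPM. The 5 satellite glia markers summed to 1348 and 1273 TPM. Which cells carried these markers was not tested. Non-myelinating Schwann cells are known to express Nax, so the value of Scn7a cannot be assigned to neurons here. None of 5 macrophage markers and none of 4 muscle markers passed 3 TPM, and the muscle marker Ckm was listed at 0 in both pools. Of 4 endothelial markers 1 passed (summed 8.94 and 6.28 TPM), and of 4 fibroblast markers 2 passed (77.8 and 78.4 TPM). In such bulk RNA, fewer cells of a type and less RNA per cell cannot be told apart.

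The voltage-gated members divided nearly evenly between TTX-resistant and TTX-sensitive transcripts. The 6 genes summed to 1286.1 TPM in the alum pool and 1248.7 TPM in the alum + KLH pool. Scn10a and Scn11a together had 674.8 and 612.1 TPM, and the 4 TTX-sensitive genes had 611.3 and 636.6 TPM. The resistant share was thus 52.5% in the alum pool and 49.0% in the alum + KLH pool, a difference of -3.44 percentage points. This places the resistant transcripts slightly above the sensitive ones in the first pool and slightly below them in the second. On the highest transcript of each gene, which lowers the Scn9a total, the share was 57.3% and 54.1%, above the sensitive share in both pools.

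Within that total, Scn9a was the largest contributor in both pools, with 32.3% and 33.8%. Scn11a gave 29.1% and 26.4%, and Scn10a gave 23.4% and 22.6%. Scn1a gave 10.9% and 12.9%. The remaining genes were small contributors, with 3.90% and 3.79% for Scn8a and 0.384% and 0.420% for Scn3a. TTX-sensitive transcript was therefore mostly Scn9a. Scn9a exceeded Scn8a 8.29-fold and 8.93-fold and exceeded Scn3a 84.1-fold and 80.5-fold.

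**Figure D2:**
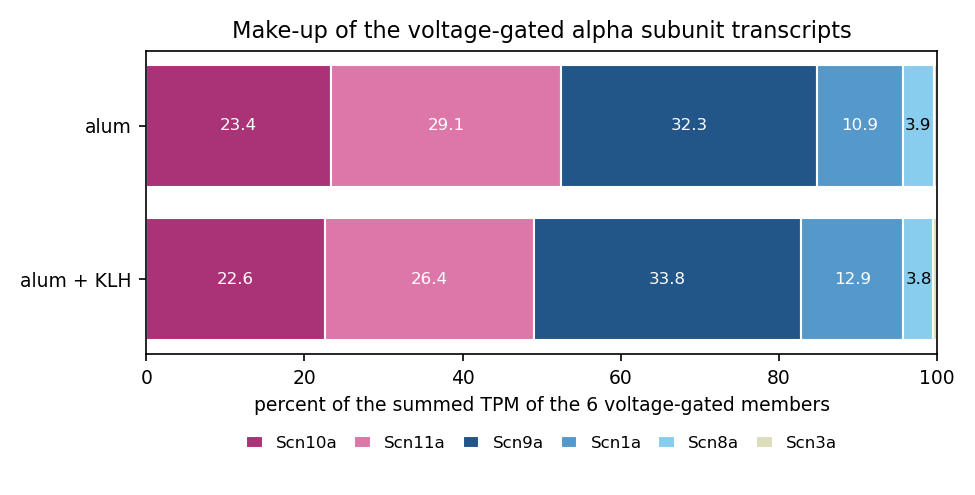
Percent of the summed TPM of the 6 voltage-gated members contributed by each gene in the alum and alum + KLH pools (1 library each), with the TTX-resistant Scn10a and Scn11a at the left in purple and pink and the TTX-sensitive genes to their right. The boundary between the groups lies at 52.5% in the alum pool and 49.0% in the alum + KLH pool, and Scn9a is the widest block in both.

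No member differed between the pools by 1.2-fold. Differences are given on the log2 scale, alum + KLH over alum with 1 TPM added to each value, which understates the change of low genes. Of the 11648 genes above 3 TPM in at least 1 pool, 3.20% were higher by 1.2-fold or more in the alum + KLH pool and 8.41% were lower by as much, against 0 and 0 of the 7 members. The count of members became 1 higher (Scn1a) when the pools were scaled to the median ratio of the genes listed as pan-neuronal. It became 1 lower (Scn11a) when they were scaled to Hprt, a common reference gene. Both lay just past the log2 limit of 0.263, at 0.264 and -0.265. Relative to Hprt, the balance of all genes moved from 373 higher and 980 lower of 11648 to 237 higher and 1726 lower of 11588. The absolute log2 ratio had a median of 0.081 over the members and 0.090 over those genes. It was 0.066 over the 2155 genes with a mean above 100 TPM, to which 5 of the members belong. Of those 2155 genes only 26 were higher and 59 lower by 1.2-fold or more, so few calls occur at that level.

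Scn1a had the largest positive ratio, 0.20, and Scn11a the largest negative ratio, -0.18. As a description of how far genes of like abundance lay apart, the SD of the ratio was taken over the 500 genes closest in level, and it was 0.163 around Scn1a and 0.127 around Scn11a. These 2 members exceeded that SD, as did 17.1% of the 11648 genes. The TTX-resistant partner of Scn11a, Scn10a, had a ratio of -0.09 (neighbour SD 0.190), and Scn8a one of -0.08 (0.139). The ratios of Scn3a at 0.07 (0.227), Scn9a at 0.02 (0.160) and Scn7a at 0.0019 (0.152) were smaller still against theirs. Of the 7 genes, 4 had a positive and 3 a negative ratio, with a median of 0.0019 beside -0.020 over the 11648 genes. The signs of Scn9a and Scn7a turned negative relative to Hprt, and that of Scn9a also on its highest transcript, while the other 5 kept their sign under each alternative tried.

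**Figure D3:**
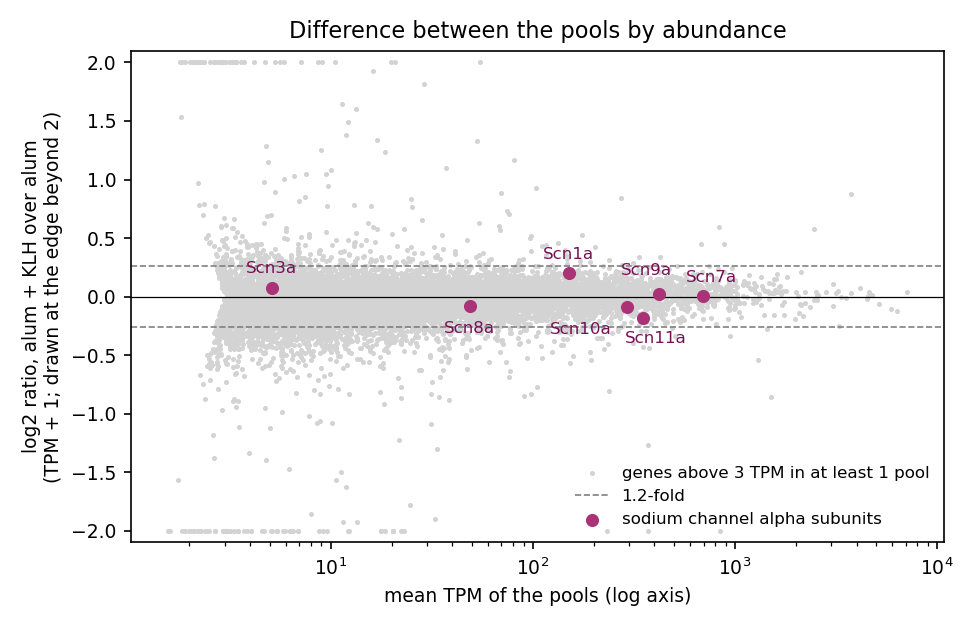
Log2 ratio of alum + KLH over alum (TPM + 1) against the mean TPM of the pools (log axis) for genes above 3 TPM in at least 1 pool (grey) and the 7 alpha subunits (purple), with dashed lines at 1.2-fold and ratios beyond 2 drawn at the edge. All 7 members lie between the dashed lines, from Scn11a at -0.18 to Scn1a at 0.20.

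Ratios between members within a library do not depend on how the pools are scaled. Scn11a exceeded Scn1a 2.66-fold in the alum pool and 2.05-fold in the alum + KLH pool, a log2 difference of -0.38. This was the widest shift among the 7 pairs examined. It had to be, because these members had the lowest and the highest ratio, so it is no separate result. Scn1a over Scn8a was 2.80 and 3.41. Scn9a over Scn11a was 1.11 and 1.28. The ordering of the pools is thus opposite for Scn1a and for Scn11a, and no replicate pool exists against which to set it.

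Markers of sensory neuron classes were read beside these values, and 2 of these lists, NP and TH, leaned one way. That lean was not particular to them. Ratios were also negative for 4 of 4 non-myelinating Schwann genes (median -0.16) and 5 of 5 satellite glia genes (median -0.03). Relative to the pan-neuronal genes, the non-myelinating Schwann list kept 4 of 4 negative and the satellite glia list 1 of 5. Over the 11648 genes above 3 TPM, 6569 ratios were negative and 5079 positive. The nonpeptidergic (NP) list had negative ratios for 7 of 7 genes, 3 of them at least 1.2-fold lower (8.41% of all genes), with a median of -0.20. Its summed level was 875.7 TPM in the alum pool and 777.5 TPM in the alum + KLH pool. The 3 were Mrgprd and the low genes Sst (7.06 and 3.99 TPM) and Nppb (12.4 and 8.95 TPM). The purinergic receptor gene P2rx3, for example, had 285.7 and 253.8 TPM, and Mrgprd, another receptor gene of the NP list, 161.0 and 132.2 TPM. The list for C-fibre low-threshold mechanoreceptors, named TH for tyrosine hydroxylase, was negative for 5 of 5 genes (median -0.17, summed 447.1 and 410.1 TPM). Relative to the pan-neuronal genes, 6 of 7 NP and 4 of 5 TH genes remained negative. The peptidergic (PEP) list had 3 positive and 3 negative genes (0 and 6 relative to Hprt), with a median of -0.05. Of them 1, Gal at -0.55, was at least 1.2-fold lower (8.41% of all genes). The PEP list summed to 7685 and 7236 TPM. Calca, encoding the peptide CGRP, held most of that sum with 6177.1 and 5728.8 TPM, and without it, left out after its values were seen, the list summed to 1508.3 and 1507.5 TPM. No gene of these lists was listed at 0. The part of these cell classes in the values of Scn10a and Scn11a was not tested.

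The list for neurofilament-rich (NF) neurons, the large myelinated cells in which Nav1.1 and Nav1.6 are known to be found, had 7 of 8 genes above 3 TPM. Its summed level was 1801 TPM in the alum pool and 1956 TPM in the alum + KLH pool, its median ratio was 0.01, and 2 genes were at least 1.2-fold higher (3.20% of all genes). Pvalb, encoding the calcium buffer parvalbumin of proprioceptors, had 80.4 and 114.3 TPM, and Spp1, encoding osteopontin, had 196.1 and 352.4 TPM. Without Spp1, left out after its values were seen, the list summed to 1604.9 and 1603.6 TPM. Nefh, the heavy neurofilament gene, had 1020.7 and 973.5 TPM and a ratio of -0.07. Of the 7 NF genes, 4 had a positive ratio, as Scn1a did, beside 5079 of the 11648 genes. That count depended on the scaling, with 3 relative to Hprt and 6 relative to the pan-neuronal genes. The part of NF neurons in the value of Scn1a was not tested.

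More than 1 transcript row was present for 3 genes, and in each of them 1 row held most of the level. For Scn8a, NM_011323 had 48.2 TPM in the alum pool and 45.9 TPM in the alum + KLH pool, 96.2% and 96.9% of the gene. Its other row, NM_001077499, held the remaining 3.80% and 3.11%, under 2 TPM in both pools. For Scn10a, NM_009134 had 293.8 and 276.9 TPM (97.8% and 98.2%) and NM_001205321 had 6.67 and 5.07 TPM. Scn9a was the gene with the least one-sided split. NM_001290674 had 304.7 and 301.9 TPM, or 73.3% and 71.4%, and NM_001290675 had 111.0 and 120.7 TPM, or 26.7% and 28.6%. The single rows were NM_018733 for Scn1a, NM_018732 for Scn3a, NM_009135 for Scn7a and NM_011887 for Scn11a.

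**Figure D4:**
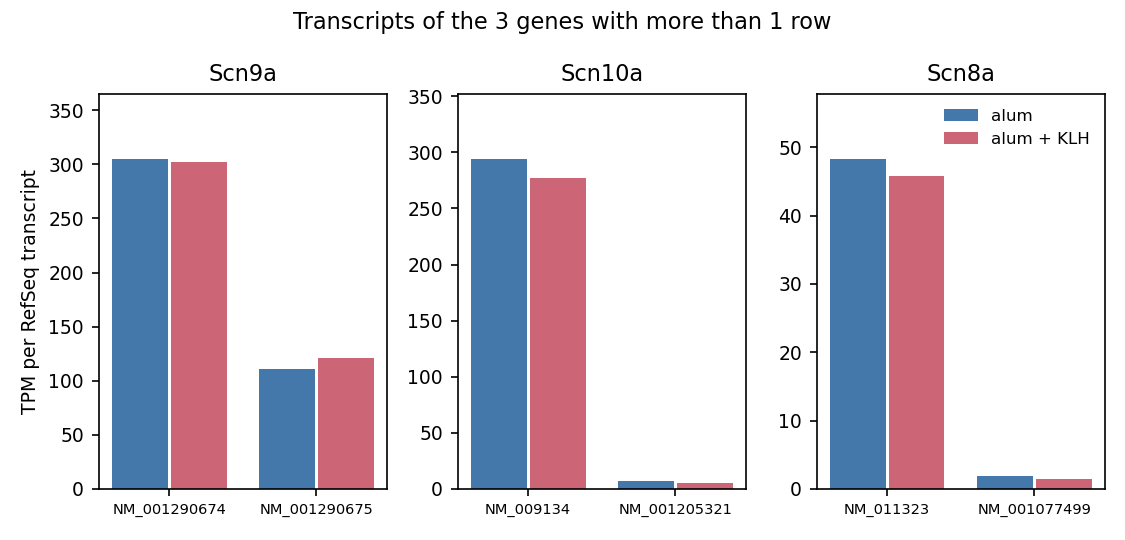
TPM of each RefSeq transcript row of Scn9a, Scn10a and Scn8a in the alum pool (blue bars) and the alum + KLH pool (red bars), 1 library each, with a separate axis from 0 for each gene. In all 3 genes the same transcript is higher in both pools, and the second Scn9a transcript, at 111.0 and 120.7 TPM, is the only minor one above 10 TPM.

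Of these transcripts, 1 lay beyond 1.2-fold. NM_001205321 of Scn10a had a log2 ratio of -0.34, while the SD over its 500 neighbours in abundance was 0.41. Among the 14215 transcripts above 3 TPM in at least 1 pool, 8.42% were higher by this much in the alum + KLH pool and 14.2% were lower. This minor transcript differs from NM_009134 by little sequence, since 74 of its 31-base words, or 1.16%, are missing from NM_009134. Its level rests on reads that overlap such words. The Scn9a rows had ratios of -0.01 for NM_001290674 and 0.12 for NM_001290675, and the major rows of Scn8a and Scn10a had -0.07 and -0.09.

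The Scn9a rows differ in several stretches. Among them are 2011 bases at the 3′ end, 33 coding bases in exon 12 and 299 bases of exon 1, all found in NM_001290674 only. Each row also has a 92-base coding exon that the other lacks, exon 6 in NM_001290674 and exon 7 in NM_001290675. As a result 25.4% of the 31-base words of NM_001290674 are missing from NM_001290675, and 1.93% in the other direction. Which stretches set the split cannot be told from TPM. Of the RefSeq transcripts that the annotation lists, 7 for Scn3a and 2 for Scn1a, 1 each had a row.

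Similar sequence in related genes limits how separately the members were measured. The share of 31-base words of a transcript that also occur in transcripts of other genes was 13.7% for Scn3a and 10.1% for Scn1a. It was 7.59% for Scn9a NM_001290674, 9.59% for NM_001290675 and 3.63% for Scn10a NM_009134. It was lowest in Scn7a at 0.0547% and Scn11a at 0.103%, followed by the Scn8a rows at 0.488% for NM_001077499 and 0.714% for NM_011323. Scn3a shared 812 words with Scn2a and 589 with Scn9a, and Scn1a shared 550 with Scn2a and 522 with Scn3a. Since Scn9a was measured 84.1 times as high as Scn3a in the alum pool, the 4.94 TPM of Scn3a is the lowest member value beside the most shared sequence, and the part of misassigned reads in it was not tested. Over most of their length, the levels of Scn7a and Scn11a rest on words found in no other gene.

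Of other channels of the family, values are given for those listed by symbol with a row. Scn2a1, the symbol used in the files for the gene of Nav1.2, had 11.3 TPM in the alum pool and 10.3 TPM in the alum + KLH pool. Scn4a, the skeletal muscle channel, had 1.17 and 1.07 TPM. It was below 3 TPM in both pools. The sodium leak channel gene Nalcn, which is no member of the voltage-gated family, had 66.4 and 66.6 TPM and stood between Scn8a and Scn1a.

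Alpha subunits work in complexes, and 15 genes of partner proteins were examined. Of them 14 passed 3 TPM, 0 were higher and 0 lower by 1.2-fold or more, against the 3.20% and 8.41% of all genes. Their ratios ran from -0.17 to 0.11 with a median of -0.06, and 3 were positive and 11 negative, which became 8 and 6 relative to the pan-neuronal genes. Sptbn4, encoding the spectrin of nodes of Ranvier, was the gene below the threshold, with 1.23 and 0.78 TPM.

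Among the beta subunits, single-pass proteins that modify gating and surface expression, Scn4b was highest at 251.0 TPM in the alum pool and 242.8 TPM in the alum + KLH pool. Scn3b had 121.1 and 115.1 TPM. Scn2b was lower, at 25.4 and 24.2 TPM. The fibroblast growth factor homologous factors bind the C-terminal tail of the channels. Fgf13 was the highest of all partners at 2138.3 and 2042.1 TPM, and Fgf12 had 700.7 and 756.2 TPM. Fgf11 and Fgf14 reached 17.9 and 19.4 TPM and 3.85 and 3.77 TPM. Fgf13 was thus above every alpha subunit in both pools.

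Of the anchoring, trafficking and turnover genes above 3 TPM, S100a10 had the ratio farthest from 0, at -0.17, with 1135.6 and 1007.8 TPM. Its protein, p11, is known to carry Nav1.8 to the membrane. Ank3, encoding the ankyrin that anchors channels at nodes, had 109.6 and 99.7 TPM, and Nfasc, a node adhesion gene, had 24.2 and 22.8 TPM. Cntn1, a surface adhesion protein that associates with the channels, had 542.1 and 545.1 TPM. Dpysl2, encoding a trafficking partner of Nav1.7, had 158.7 and 157.4 TPM. The ubiquitin ligase genes Nedd4 and Nedd4l, whose products take channels from the membrane, had 606.3 and 596.1 TPM and 132.8 and 119.9 TPM.

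**Figure D5:**
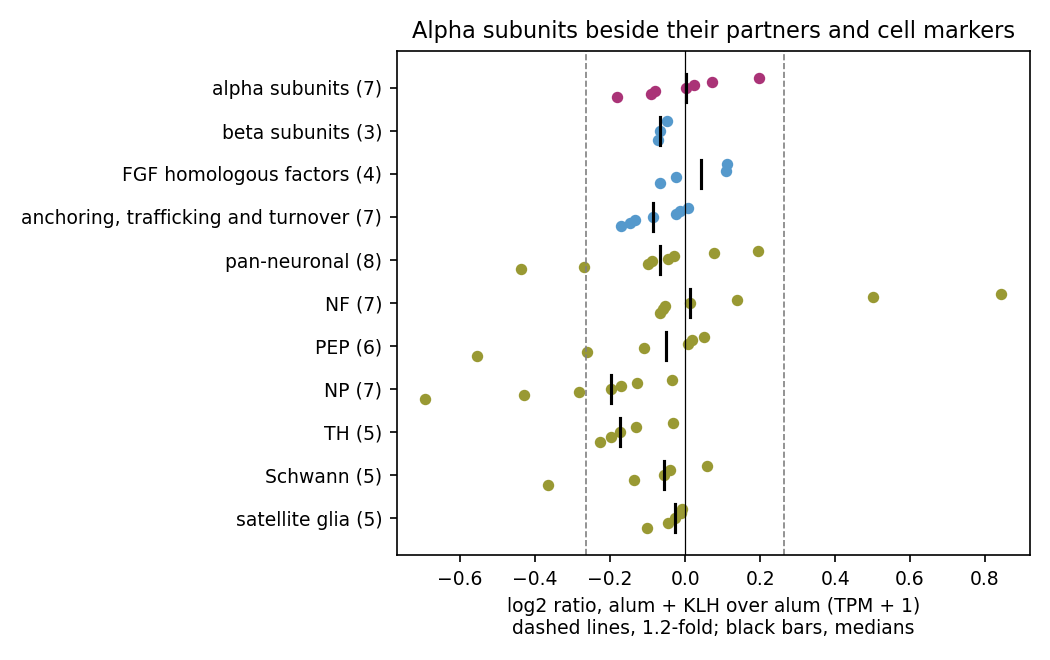
Log2 ratio of alum + KLH over alum (TPM + 1) for genes above 3 TPM, 1 point per gene and their number in brackets, in the alpha subunits (purple), their partners (blue) and cell marker lists (olive), with black bars at the medians and dashed lines at 1.2-fold. The 7 alpha subunits and the 14 partner genes lie between the dashed lines. The NP, TH, satellite glia and beta subunit genes lie left of 0. Relative to the pan-neuronal genes, 1 gene each of NP, TH and the beta subunits and 4 of satellite glia cross 0.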

How the data were processed

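Stranded mRNA libraries of the 2 DRG neuron pools were sequenced paired-end by the authors, trimmed with cutadapt and quantified with kallisto against the annotated mm10 transcriptome. The authors deposited TPM for each RefSeq transcript, scaled to 1000000 per library. These values keep no read counts, so the depth behind a value is unknown from the files and no interval was computed, and kallisto's division of reads among similar transcripts is already in them.

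TPM was summed per gene symbol. Log2 ratios used a pseudocount of 1 TPM, and calls a threshold of 1.2-fold among genes above 3 TPM in at least 1 pool. With 1 library per group no test was made. Named genes are the 7 members, their partner lists and the marker lists (pan-neuronal, NF, NP, PEP, TH, Schwann, non-myelinating Schwann, satellite glia, endothelial, macrophage, muscle, fibroblast). Members and lists were chosen with earlier results of these data known. Positions and sequences came from GENCODE M21 through its RefSeq table. Proteins were translated from it and aligned with Biopython 1.88. Python 3.11.15, numpy 2.4.6, pandas 2.3.3 and matplotlib 3.10.9 were used, and the calculations were tested on simulated data. Alternatives were other pseudocounts, filters, scalings, the highest transcript per gene, and the removal of 1470 small RNA rows. A few listed genes and sequence stretches are not reported here.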

Additional observations from a re-analysis of the deposited data

How the results depend on the processing

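No paired analysis was possible because each group is 1 pooled library, and for the same reason no replicate could be left out. Of 132 values recomputed under the alternatives, 105 kept to their limit and 27 moved. Those that moved include 14 shares of single genes and 3 values of the TTX-resistant share. Taking Scn7a out of a total, or into it, changes such a share by arithmetic alone. The limit was 1.5 times for counts and, for levels, ratios and shares on the log2 scale, the neighbour SD of the gene (for the TTX-resistant share the smaller of those of Scn10a and Scn11a, 0.127). All 42 recomputed ratios of the members moved by less than their neighbour SD, which was nearly fixed in advance. The scalings shift any ratio by about 0.02, -0.08 or 0.07, less than the smallest neighbour SD of 0.127. Scn1a, Scn3a, Scn7a and Scn11a, with a single row, cannot change on the highest transcript. The count is therefore no measure of robustness. Scn1a ranged from 0.11 to 0.26 and Scn11a from -0.27 to -0.11, while Scn7a (-0.08 to 0.07) and Scn9a (-0.06 to 0.09) changed sign. Dividing the alum + KLH pool by 0.954, the median ratio of the pan-neuronal genes, placed 1 member (Scn1a) at least 1.2-fold higher. Dividing it by 1.06, the ratio of Hprt, placed 1 (Scn11a) at least 1.2-fold lower. The summed level of the pan-neuronal list moved the other way from its median ratio, from 9490 TPM in the alum pool to 9564 TPM in the alum + KLH pool. A scale from that list therefore depends on how it is summarised. The genes at least 1.2-fold higher numbered 237 of 11588 (2.05%) relative to Hprt and 784 of 24411 (3.21%) without the filter on low values. Above 10 TPM they numbered 163 of 8486 (1.92%). Those lower numbered 1726 (14.9%), 1670 (6.84%) and 471 (5.55%) in the same order. As deposited and above 3 TPM, the shares were 3.20% higher and 8.41% lower. Taking the highest transcript put Scn9a at 304.7 and 301.9 TPM and the TTX-resistant share of the alum + KLH pool at 54.1%. With Scn7a in the total that share was 34.1% in the alum pool and 31.5% in the alum + KLH pool.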

Other observations

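One partner transcript is given here, and it was chosen after its values were seen. Transcript rows of the other partners were not compared with it. NM_001286614 of the beta subunit gene Scn3b had 0.311 TPM in the alum pool and 4.67 TPM in the alum + KLH pool, a log2 ratio of 2.11, while the gene as a whole had 121.1 and 115.1 TPM. The other rows of Scn3b had 37.2 and 31.7 TPM and 83.6 and 78.7 TPM, so that the sum of the gene moved the opposite way to this transcript. With 1 pool per group the difference has no replicate check. The transcript passed 3 TPM only in the pool where it was high. Of the 14215 transcripts above 3 TPM in at least 1 pool, 8.42% were at least 1.2-fold higher in the alum + KLH pool. The part of kallisto's division of reads among the Scn3b rows was not tested.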
